A study of Mus musculus with 2 samples.

Results

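Interferon-induced antiviral effector genes were examined in cells labelled as red pulp macrophages, the spleen macrophages that take up worn-out erythrocytes and recycle their iron. The genes were taken from a list of 56 antiviral effectors, by the accession that each array probe carries. Of these, 53 had a probe named here, out of 20642 genes so named, and 49 gave a signal well above background on at least 1 array. Mx1, Mx2 and Ifi203 had no probe named here and were not analysed. Ifit2, Slfn1, Slfn5 and Eif2ak2 had a probe that was not well above background on either array, so no difference is given for them.

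The samples were wild-type (WT) mice and mice lacking SIRPα (SIRPα-KO), a receptor through which CD47 on other cells restrains phagocytes. Per the labels, F4/80-positive, CD11b-low spleen cells were sorted, from 5 mice of a genotype for each sample, and globin transcripts were removed from the RNA before labelling with Cy3. There was thus 1 array for each genotype, each from 1 pool, and the labels give no treatment beyond the genotype. The sources used here do not give strain, age or the form of the Sirpa deletion. No test across samples was possible, no difference has a replicate check, and precision is limited by having 1 array each.

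Cells infected by a virus release type I interferons, which bind a receptor made of IFNAR1 and IFNAR2 and act through the kinases JAK1 and TYK2. Genes that answer type I interferon often carry a DNA element called ISRE, and genes that answer interferon-γ often carry an element called GAS. The genes so induced encode proteins that sense viral RNA, degrade it, block its translation, or attack the compartments in which pathogens grow. Macrophages keep many of these genes at a basal level without infection.

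Signals are the scanner software's background-subtracted brightness. For differences, each signal was divided by the 75th percentile of its array (100.2 for WT, 89.1 for the other) and put on the log2 scale. Differences are given as SIRPα-KO-labelled minus WT throughout. The error after ± is the software's spot error of both arrays, which covers neither mice nor pools. A difference was counted when the arrays were at least 2-fold apart (1 or more on the log2 scale).

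The targeted gene does not bear out the label: Sirpa read 795 in WT and 1006 on the SIRPα-KO-labelled array, a difference of 0.51 ± 0.20. A probe outside the deleted part of the gene would check nothing, and its place relative to the deletion is not given. Both arrays were read in 1 scan, and the share of probes well above background was 71.5% in WT and 65.4% on the other. Every direction below follows the labels alone.

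Most of the antiviral genes read lower on the SIRPα-KO-labelled array. Of the 49 measured members, 9 (18.4%) were at least 2-fold lower, where 5.52% of all 15833 measured genes were. These were Oasl1, Ifit1, Ifit3, Cmpk2, Gbp6, Dtx3l, Isg15, Irgm2 and Parp14. Cmpk2 and Dtx3l entered through their WT signal alone, and the difference of Dtx3l is a lower bound. The count was 7 of 46, against 5.55% of all genes, when both arrays had to pass the background limit. With the next brightest measured probe, for genes that had one, Cmpk2, Dtx3l, Gbp6 and Isg15 dropped out and Gbp6 was 2-fold higher. The 5 that stayed had only 1 measured probe each and kept their value, so that setting could not move them. After normexp background correction the count was 4. Only Herc6 was at least 2-fold higher, 1 of 49, where 3.13% of all genes were. The direction was shared more widely than the size: 40 members lay below 0 and 9 above, where 57.8% of all genes lay below 0 and 40.4% above. The median difference was -0.35 for the members and -0.09 for all measured genes. The members were chosen with earlier results of these data known, so their shares beside those of all genes are a description only. In RNA from sorted pools, fewer cells of a type and less RNA per cell cannot be told apart.

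Differences of all genes leaned lower at high signal, so the members were also read within 2 ranges of signal. Among the 28 members whose mean log2 value over both arrays was above 0, 6 (21.4%) were at least 2-fold lower, against 9.84% of the 6025 genes in that range, and none was 2-fold higher, against 2.61%. Of the 28, 25 lay below 0, against 62.5%. Their median was -0.45, against -0.17. Among the 21 members at or below 0, 3 (14.3%) were at least 2-fold lower, against 2.87% of 9808 genes, and 1 was 2-fold higher, against 3.45%. The 3 lower ones were Cmpk2, Dtx3l and Irgm2, of which only Irgm2 passed the background limit on both arrays. The lower share in this range thus rests mostly on genes that entered through WT alone. Of the 21, 15 lay below 0, against 54.9%, with medians of -0.24 and -0.05. Measured against the spot error, 23 of the 49 members were lower by more than 2 errors and 4 were higher by as much. The shares of all genes were 17.8% and 14.4%.

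**Figure D1:**
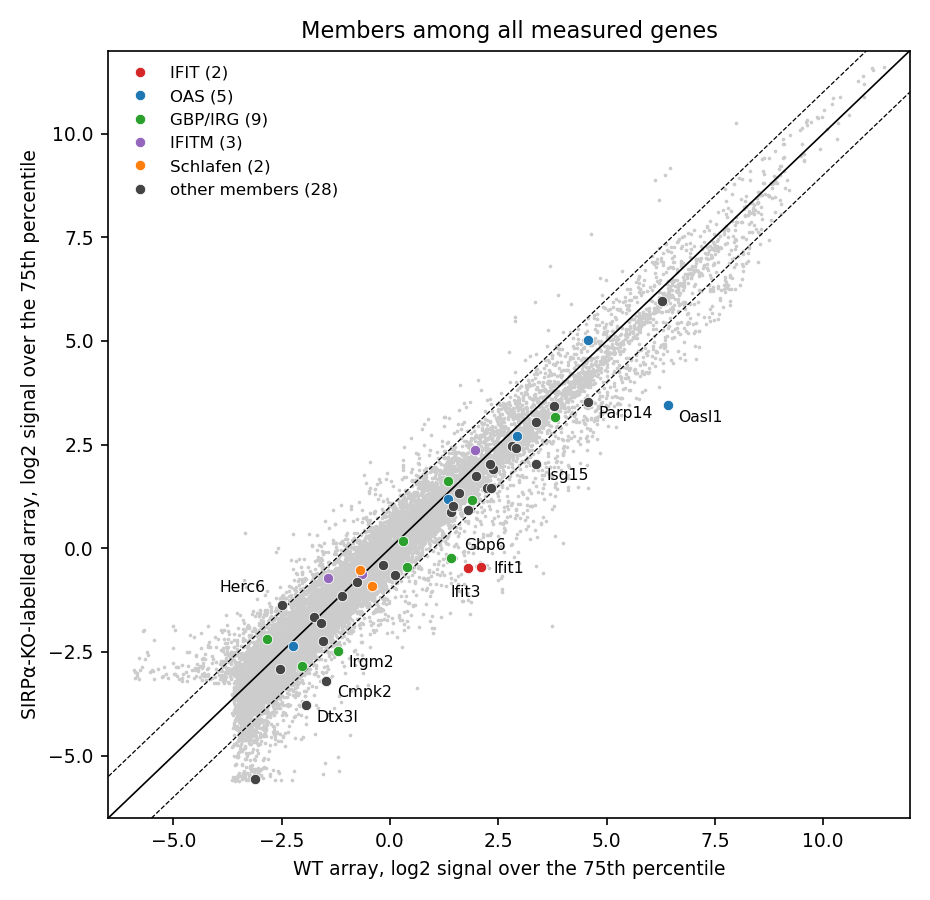
Log2 signal over the 75th percentile of the array, WT array on the x axis and SIRPα-KO-labelled array on the y axis, for all 15833 measured genes (grey) and the 49 measured members (coloured by family), each at its measured value. The solid line marks equal values and the dashed lines a 2-fold difference; 9 members lie 2-fold or more below the solid line when the rule for dim probes is applied, and Herc6 alone above it. The unlabelled member at the lower left is Rsad2, whose low side was not well above background.

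The IFIT genes encode proteins that bind foreign RNA and block its translation. Ifit1, which recognises RNA without the host's cap methylation, read 429.7 in WT and 65.9 on the SIRPα-KO-labelled array. That is 5.80-fold lower (-2.54 ± 0.21). Ifit3, a partner of other IFIT proteins, read 347 and 64.5 and was 4.79-fold lower (-2.26 ± 0.21). Both measured members thus differed by far more than their spot errors, and the family median was -2.40. Their relatives did not all share this. Ifit3b, a close copy of Ifit3 whose transcripts a probe may not separate, read 380 and 94.4 (-1.84 ± 0.21), and its further probe was at least 3.51-fold lower. Ifit1bl1 and Ifit1bl2, named outside the naming rule, differed by 0.17 ± 0.30 and 0.46 ± 0.20.

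The 2',5'-oligoadenylate synthetases make the messenger that switches on RNase L, which cuts RNA. Oasl1, a member without that enzyme activity that represses translation of Irf7 mRNA, read 8585 in WT and 982 on the other array. It was 7.78-fold lower (-2.96 ± 0.20), the largest difference of the 49 members. The other members of the family did not share it. Oasl2 read 766 and 578, a difference of -0.24 ± 0.20. Oas2 read 253 and 203 (-0.15 ± 0.20), and Oas3 read 21.0 and 17.5 (-0.10 ± 0.31). These 3 differences are close to or below their error. Oas1a, the main active synthetase of the OAS1 group in mice, read 2401 and 2905 and was 1.36-fold higher (0.44 ± 0.20). A further Oas1a probe, with signals of 53.0 and 34.8, went the other way (-0.44 ± 0.23), and the mean of its probes gave 0.00. The family median was -0.15. Of 6 measured OAS1 relatives none was 2-fold apart, with a range from -0.47 to 0.69; Oas1d read 1504 and 963 (-0.47 ± 0.20).

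Promoters of genes in these families were searched for the letters of the ISRE core, which is GAAA, any 2 bases and GAAA again, on either strand, and of the GAS core, TTCNNNGAA, which reads the same on both strands. The window ran from 250 bases before to 50 bases after the start site, in RefSeq sequences of build GRCm38.p6, in which 42 of the 56 members had an entry. An ISRE core lay in 25 of the members' 52 promoters (48.1%), in 23 of the 42 genes, where 3.44% of all 32851 promoters held one. A GAS core lay in 12 of 52 (23.1%), against 8.30% of all promoters. A few of the promoters are shown, of genes whose readings went apart: Ifit1, Ifit3, Isg15 and Oasl1 read over 2-fold lower, and Oas1a did not. Each runs 5′ to 3′ from base -170 to base -1 before the start site, and capitals mark ISRE and GAS cores, overlapping copies joined.
Ifit1 (chr19:34640719-34640888, plus strand): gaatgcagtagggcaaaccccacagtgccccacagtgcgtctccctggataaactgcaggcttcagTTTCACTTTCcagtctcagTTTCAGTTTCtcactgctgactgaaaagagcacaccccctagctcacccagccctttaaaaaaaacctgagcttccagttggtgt
Ifit3 (chr19:34583359-34583528, plus strand): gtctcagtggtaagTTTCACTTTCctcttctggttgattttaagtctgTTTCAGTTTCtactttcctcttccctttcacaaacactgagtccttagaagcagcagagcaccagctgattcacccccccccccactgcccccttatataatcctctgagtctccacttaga
Isg15 (chr4:156200819-156200988, minus strand): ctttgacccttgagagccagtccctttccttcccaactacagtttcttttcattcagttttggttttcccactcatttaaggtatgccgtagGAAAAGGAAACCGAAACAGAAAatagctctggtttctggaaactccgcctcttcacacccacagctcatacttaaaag
Oasl1 (chr5:114923070-114923239, plus strand): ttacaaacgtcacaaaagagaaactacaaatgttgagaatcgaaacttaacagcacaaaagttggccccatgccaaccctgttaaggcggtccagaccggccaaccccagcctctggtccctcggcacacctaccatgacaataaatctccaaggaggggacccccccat
Oas1a (chr5:120907526-120907695, minus strand): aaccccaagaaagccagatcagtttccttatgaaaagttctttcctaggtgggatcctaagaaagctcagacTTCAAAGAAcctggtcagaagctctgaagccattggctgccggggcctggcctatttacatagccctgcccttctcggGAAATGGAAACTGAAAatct

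In Ifit1 the cores start at bases -104 and -85, and in Ifit3 at bases -156 and -122, all as the reverse complement, with TTTC at both ends. Isg15 has 3 overlapping copies, which start at bases -78, -72 and -66. Oas1a has 2 overlapping copies at bases -20 and -14 and a GAS core at base -98. Oasl1, the member with the largest difference, has neither set of letters in its window. Across the 37 measured members with a promoter entry, the median difference was -0.34 for the 20 with an ISRE core (range -2.54 to 0.67) and -0.38 for the 17 without (range -2.96 to 1.14). Of these, 4 and 3 were at least 2-fold lower. For the GAS core the medians were -0.33 for the 10 members with it and -0.38 for the 27 without, of which 1 and 6 were at least 2-fold lower. The medians with and without each core were thus close. A match is a description of the sequence, not of binding.

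The guanylate-binding proteins (GBP) and immunity-related GTPases (IRG) gather on the vacuoles of intracellular pathogens and break them open. Of 9 measured members 2, Gbp6 and Irgm2, were at least 2-fold lower, against 5.52% of all genes, and none was 2-fold higher. Below 0 lay 7 of the 9, against 57.8% of all genes, and the median was -0.73. In the GBP genes, Gbp6 read 267.5 in WT and 75.9 on the SIRPα-KO-labelled array (-1.65 ± 0.21, 3.14-fold lower). A further Gbp6 probe went the other way, from 40.5 to 152 (2.08 ± 0.21), so the direction of Gbp6 depends on the probe. Gbp3 read 373 and 199 (-0.73 ± 0.20), and Gbp2 read 124 and 100.5 (-0.14 ± 0.21). The lower reading thus exceeds the spot error in Gbp3, on 1 probe with 1 spot per array, is within error in Gbp2 and is undecided in Gbp6.

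In the IRG genes, the regulators that restrain the other GTPases diverged. Irgm2 read 43.8 and 16.1 (-1.28 ± 0.27, 2.42-fold lower). Igtp, also called Irgm3, read 24.7 over 9 spots and 12.3 over 10 spots, with spot SDs of 0.09 and 0.23 on the log2 scale (-0.83 ± 0.32). Irgm1, which protects macrophages against mycobacteria, went the other way from low signals of 13.9 and 19.6 (0.67 ± 0.31), and its further probe was well above background on the WT array alone, with no difference. The effectors that act on the vacuole were also split. Tgtp1, whose close copy Tgtp2 a probe may not separate, read 131 and 65.2 (-0.84 ± 0.21). Ifi47 read 1413 and 799.7 (-0.65 ± 0.20). Iigp1 read 255 and 276 (0.28 ± 0.20), while a further Iigp1 probe was at least 1.42-fold lower. Among 8 measured relatives in the GBP and IRG families none was 2-fold lower, with a median of -0.34; Irgc1 was at least 2.58-fold higher, from 7.42 (not well above background) to 18.2.

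The promoters of the regulatory IRG genes and of Tgtp1 are shown because 3 of the 4 share an arrangement that the other, Irgm1, lacks. They run 5′ to 3′ from base -120 to base -1, in build GRCm38.p6, with ISRE and GAS cores in capitals.
Irgm2 (chr11:58214857-58214976, plus strand): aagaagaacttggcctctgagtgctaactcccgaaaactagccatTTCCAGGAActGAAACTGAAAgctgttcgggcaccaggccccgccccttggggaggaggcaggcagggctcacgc
Igtp (chr11:58199436-58199555, plus strand): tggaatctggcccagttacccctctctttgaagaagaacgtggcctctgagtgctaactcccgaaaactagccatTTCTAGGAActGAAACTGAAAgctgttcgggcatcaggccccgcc
Tgtp1 (chr11:48992247-48992366, minus strand): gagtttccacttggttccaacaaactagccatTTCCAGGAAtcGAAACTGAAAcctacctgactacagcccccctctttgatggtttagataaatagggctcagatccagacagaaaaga
Irgm1 (chr11:48871421-48871540, minus strand): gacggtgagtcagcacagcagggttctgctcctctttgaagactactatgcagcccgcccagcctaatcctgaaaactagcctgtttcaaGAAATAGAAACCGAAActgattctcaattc

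In Irgm2, Igtp and Tgtp1 a GAS core starts 11 bases before an ISRE core, at bases -75 and -64, -45 and -34, and -88 and -77. Of all 32851 promoters only 5 (0.0152%) hold the cores at that distance, and the others are those of Tgtp2 and of Gm12185, a predicted gene. Irgm1 has 2 overlapping ISRE cores, starting at bases -30 and -24, and no GAS core in its window. The 3 members with the paired cores differed by -1.28, -0.83 and -0.84, and Tgtp2, which holds them too, by -0.46 ± 0.20, with a further probe at 0.01 ± 0.26. Irgm1 differed by 0.67, but Ifi47, which has neither core in its window, was also lower (-0.65). The arrangement was noticed after these values were known, and no test bears on it.

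The IFITM proteins sit in endosomal membranes and hinder the fusion of entering viruses. None of the 3 members read lower. Ifitm1 read 37.0 in WT and 54.0 on the other (0.72 ± 0.22). Ifitm3, which restricts influenza viruses, read 389.5 and 459 over 10 spots per array, with spot SDs of 0.11 and 0.09 (0.41 ± 0.20). Ifitm2 read 64.3 and 57.7 (0.01 ± 0.21); it lay at -0.16 without scaling and at -0.01 after cyclic loess. The family median was 0.41, and it lay between 0.24 and 0.59 in the other settings tried. Relatives read 60.7 and 59.3 for Ifitm5 (0.13 ± 0.21), and the other measured one, Ifitm6, differed by 0.67 ± 0.36.

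Schlafen genes regulate growth of immune cells and, in part, restrict viruses. Slfn2, which keeps T cells and monocytes quiescent, read 74.7 and 47.4 (-0.49 ± 0.22). Slfn8 read 62.1 and 61.8 (0.16 ± 0.21), and -0.01 without scaling. With Slfn1 and Slfn5 not above background, the family rests on these genes, which went apart by more than their errors. Among the relatives Slfn9 read 3812 and 4821 (0.51 ± 0.20), with a further probe at 0.63 ± 0.20. Slfn14 read lower (-0.75 ± 0.24), as did Slfn3, by 1.83-fold, with only its WT signal well above background.

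The order of the 5 family medians was IFIT (-2.40), GBP and IRG (-0.73), Schlafen (-0.16), OAS (-0.15) and IFITM (0.41). The 2 measured IFIT members lay below the 3 IFITM members. The IFIT relatives Ifit1bl1 (0.17) and Ifit1bl2 (0.46), however, lay within the range of the IFITM members (0.01 to 0.72). The range of the OAS genes (-2.96 to 0.44) covered almost the whole list. Schlafen and OAS medians differed by less than the spot error. With 1 array per genotype the difference between families was not tested.

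**Figure D2:**
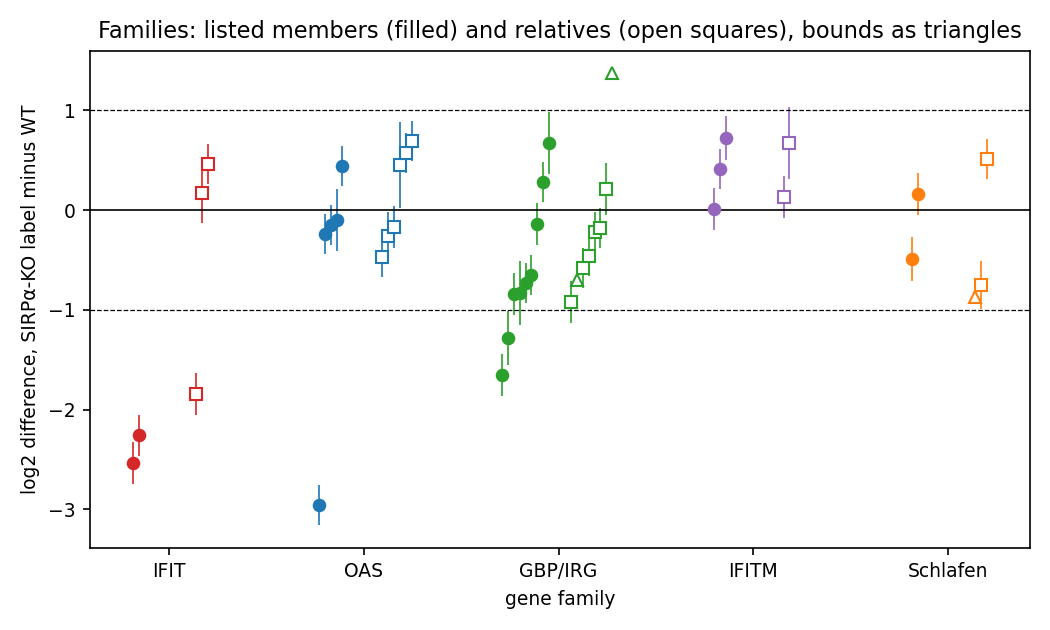
Log2 difference, SIRPα-KO-labelled array minus WT, on the y axis, for the measured members of 5 gene families (filled circles) and further genes of the same families (open squares). Bars are spot errors and dashed lines mark 2-fold. Triangles are genes well above background on 1 array alone, which are lower bounds except for Slfn3. Ifit1, Ifit3, Ifit3b and Oasl1 lie below -1.8, and the 3 IFITM members lie at or above 0.01.

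ISG15 is a ubiquitin-like protein that is attached to other proteins after interferon. Isg15 itself read 1045 in WT and 366 on the SIRPα-KO-labelled array, 2.54-fold lower (-1.34 ± 0.20). A further Isg15 probe, at 12.9 and 11.3, differed by -0.03 ± 0.40. Usp18, which removes ISG15 and also damps signalling at the interferon receptor, read 471 and 244 (-0.78 ± 0.20). Herc6, the ligase that attaches ISG15 in mice, went the other way, from 17.7 to 34.7 (1.14 ± 0.27, 2.21-fold higher), from low signals. Uba7, the enzyme that activates ISG15, read 776 and 1058 (0.62 ± 0.20), and the conjugating enzyme Ube2l6, named outside the rule, differed by 0.30 ± 0.21. The 3 measured members of this system thus went apart, and the lower reading of Isg15 rests on 1 of its probes.

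Of 6 measured sensors of foreign nucleic acid and their regulators, none was 2-fold apart, and Zbp1 and Ifi204 were lower by more than 2 errors. All 6 lay below 0, as did 57.8% of all genes, of which 17.8% were lower by more than 2 errors. Eif2ak2, the kinase PKR, was not above background on either array. Ddx58 (RIG-I) read 1034 and 733 (-0.33 ± 0.20), Ifih1 (MDA5) read 706 and 492 (-0.35 ± 0.20), and their regulator Dhx58 read 90.1 and 67.7 (-0.24 ± 0.21). The 3 RNA helicases thus lay close together, but Ddx58 and Ifih1 moved to -0.10 and -0.14 after quantile normalization, within their errors. Zbp1, a sensor of left-handed nucleic acid that can start cell death, read 749 and 474 (-0.49 ± 0.20). After quantile normalization it lay at -0.26. Adar, which edits double-stranded RNA so that it is not sensed, read 1384 and 966 (-0.35 ± 0.20), and lay at -0.10 after quantile normalization. Ifi204, of the family of DNA-binding HIN proteins, read 348 and 169 (-0.87 ± 0.20); its close relative Ifi203 was not analysed.

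In the main setting, ubiquitin ligases and ADP-ribosyl transferases of this response were lower in all 6 members, each by more than 2 spot errors or as a bound. Of all genes, 57.8% lay below 0 and 17.8% were lower by more than 2 errors. Parp14, which modifies proteins with ADP-ribose, read 2389 and 1039 (-1.03 ± 0.20, 2.05-fold lower). Dtx3l and Parp9 form a complex, and Dtx3l read 26.1 and 6.45, at least 2.72-fold lower because the lower signal was not well above background. A further Dtx3l probe, at 10.4 and 7.16, was at least 1.08-fold lower. Parp9 read 276 and 180.5 (-0.44 ± 0.20). Trim21, an intracellular antibody receptor, read 108 and 57.0 (-0.76 ± 0.21). Trim25, a ligase that acts with RIG-I, read 520.0 and 335 (-0.47 ± 0.20), and Trim30a read 266 and 164 (-0.53 ± 0.20). After quantile normalization all 6 stayed below 0, but Parp9 and Trim25 moved to -0.36 and -0.28, within 2 errors. Parp14 moved to -0.75.

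Of 4 enzymes that limit nucleotides or degrade RNA, Cmpk2 and Samhd1 were lower by more than 2 errors, while Rsad2 and Isg20 were not. The share of all genes lower by as much was 17.8%. Cmpk2, a mitochondrial nucleotide kinase, read 36.2 and 9.76 and was 3.30-fold lower (-1.72 ± 0.38). Its dimmer signal was not well above background but needed no raising, so this is the measured difference and no bound. Its further probe was at least 1.25-fold lower. Rsad2 (viperin), which makes a chain-terminating nucleotide, read 11.6 and 1.87, which allows only the bound of at least 1.21-fold lower. Samhd1, which degrades the building blocks of DNA, read 503 and 243 (-0.88 ± 0.20). Isg20, an exonuclease, read 7836 and 5596 (-0.32 ± 0.20), with a further probe at -0.72 ± 0.21; it lay at -0.07 after quantile normalization and at 0.17 after normexp correction.

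The remaining 9 members stayed within 2-fold, with a median of -0.25. Samd9l, a restriction factor of poxviruses, had the largest difference of these, from 34.2 to 18.9 (-0.68 ± 0.26), and its further probe gave 0.02 ± 0.28. Ifi44 (-0.38 ± 0.35), Ifi27 (-0.27 ± 0.20), Tor3a (-0.26 ± 0.20), Rtp4 (-0.25 ± 0.20) and Ifi35 (-0.20 ± 0.25) lay a little below 0. Bst2, the tetherin that holds budding viruses on the cell, differed by -0.07 ± 0.22, Sp100 of nuclear bodies by -0.05 ± 0.22, and Xaf1 by 0.11 ± 0.25 (-0.06 without scaling). These last 3 values are below their errors.

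**Figure D3:**
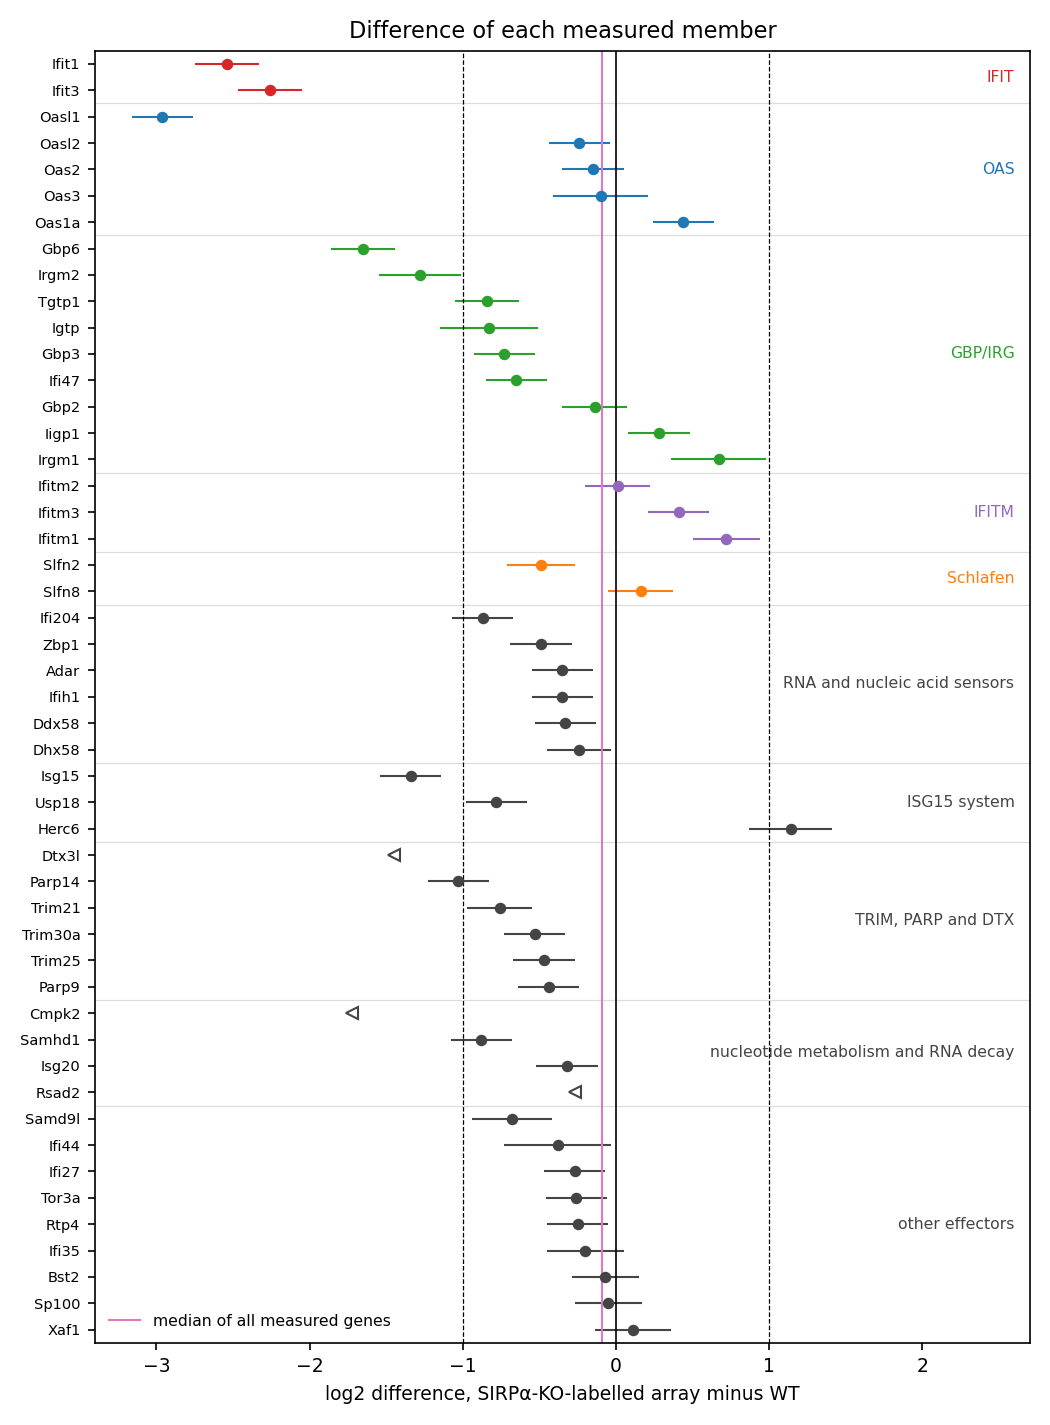
Log2 difference, SIRPα-KO-labelled array minus WT, on the x axis, for each of the 49 measured members, grouped by role. Bars are spot errors, dashed lines mark 2-fold and the pink line the median of all measured genes (-0.09). Open triangles are members well above background in WT alone: lower bounds for Dtx3l and Rsad2, the measured difference for Cmpk2. Of the 49, 40 lie left of 0, with Oasl1, Ifit1 and Ifit3 farthest.

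A second probe was available as a check for few members. Of the 49, 12 had more than 1 probe well above background on at least 1 array. In 7 of the 12 the probes had the same sign, in 4 (Gbp6, Iigp1, Oas1a and Samd9l) the opposite sign, and for Irgm1 the further probe gave 0. Of the 9 members at least 2-fold lower, Cmpk2, Dtx3l, Gbp6 and Isg15 had a further probe, and at none of these was it 2-fold lower. Oasl1, Ifit1, Ifit3, Irgm2 and Parp14 rest on a single probe with 1 spot per array. Within 1 gene the further probe was by rule the dimmer one.

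**Figure D4:**
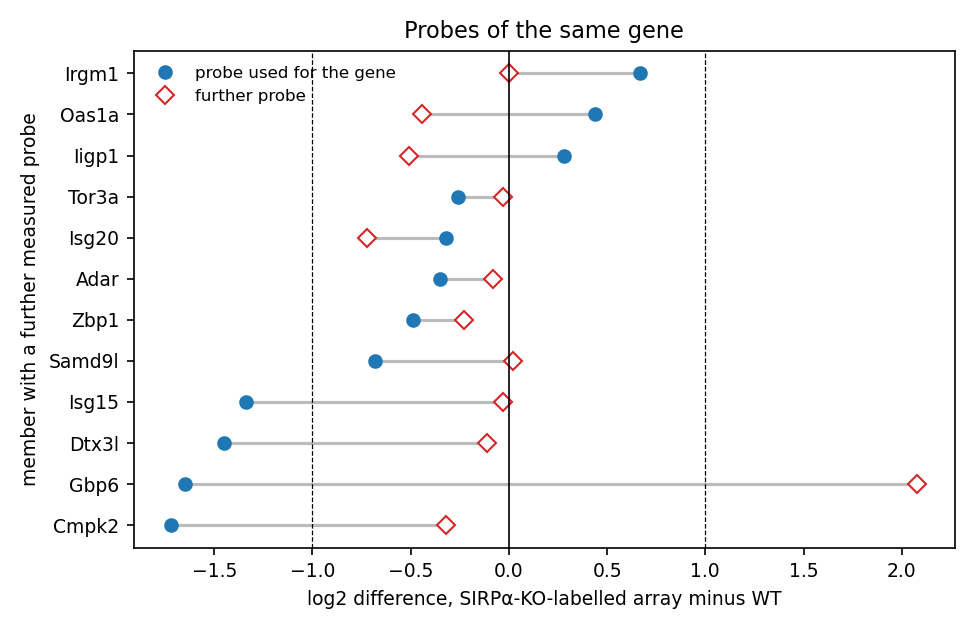
Log2 difference, SIRPα-KO-labelled array minus WT, on the x axis, at the probe used for the gene (filled circle) and at its further measured probe (open diamond), for the 12 members with both; dashed lines mark 2-fold. The widest gap is that of Gbp6, from -1.65 to 2.08, and the further probes of Isg15, Dtx3l and Cmpk2 lie between -0.32 and -0.03.

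The pathway genes were close to the background. Of 28 measured genes for interferons, receptors, kinases, transcription factors, inhibitors and ISG15 enzymes, 1 (3.57%) was at least 2-fold lower and none higher, against 5.52% and 3.13% of all genes. Their median was -0.04, against -0.09, and 7 of the 28 were lower by more than 2 errors, against 17.8% of all genes. That gene was the transcription factor Irf1, which read 222 and 94.0 (-1.07 ± 0.21), with a further probe at -0.22 ± 0.25. Among the ligands, the interferon-β gene Ifnb1 was not well above background on either array. Ifna2, an interferon-α gene whose many near-copies a probe may not separate, read 279 and 132 (-0.91 ± 0.21), and its further probe gave 0.06 ± 0.22. The receptor gene Ifngr1 read 369 and 512 (0.64 ± 0.20). The kinase gene Jak2 read 2693 and 1725 (-0.47 ± 0.20), and Socs3, a feedback inhibitor, read 4731 and 4155 (-0.02 ± 0.20). Of the transcription factors named outside the rule, Stat2 differed by -0.75 ± 0.20 and Irf9 by -0.03 ± 0.20, and Irf7 was not above background on either array. By list, the medians were -0.58 for transcription factors, -0.47 for kinases, -0.18 for inhibitors, -0.13 for ligands, 0.24 for receptors and 0.46 for ISG15 enzymes. Of the 7 measured transcription factors, 3 were lower by more than 2 errors and none was higher by as much.

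Markers of the sorted cells and of others were read beside these values. Of 10 red pulp macrophage markers 8 were measured, with signals summed over the 75th percentile of 140 in WT and 198 on the other, and Itgad and Mrc1 were not above background. The higher sum came mostly from Adgre1 (6830 and 10406), while 4 of the 8 lay below 0 and the median difference was 0.01. Csf1r (6601 and 6697) and Hmox1 (331 and 236) were also bright, but the other measured ones read near or below the 75th percentile. Among these, Spic read 53.6 on both arrays and Vcam1 82.1 and 63.2. The name of the sorted cells follows the labels. For plasmacytoid dendritic cells, which release interferon, 7 of 7 were measured and the sums were 1364 and 1838. They were carried mostly by Siglech (79647 and 113603) and Pacsin1 (54849 and 49091), both brighter than any measured red pulp macrophage marker. Ccr9 went the other way from Siglech (1853 and 941), and 3 of the 7 lay below 0. The signals of Ly6d, Tcf4, Cox6a2 and Klk1 lay between 30.5 and 161. Monocyte markers (5 of 7 measured, Ccr2 not above background) summed to 127 and 110, and neutrophil markers (7 of 9, Ngp not above background) to 2.54 and 1.94. Conventional dendritic cell markers (6 of 6) summed to 14.2 and 7.31, T cell markers (5 of 5) to 83.8 and 69.3, NK cell markers (5 of 5) to 8.91 and 7.54 and B cell markers (5 of 5) to 4.96 and 5.27. The monocyte sum was mostly Vcan and the T cell sum mostly Cd4 and Cd3e. Median differences of the markers were -0.35 for monocytes, -0.27 for conventional dendritic cells, -0.18 for NK cells, -0.16 for neutrophils, -0.01 for T cells, 0.01 for plasmacytoid dendritic cells and 0.21 for B cells. The part of these markers in the result was not tested.

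The direction of the list did not rest on 1 scaling. The median of all genes was -0.26 without scaling and -0.03 after quantile normalization, and the median of the members minus that of all genes was -0.26 and -0.22. Over all settings tried that gap ran from -0.30 to -0.16. Oasl1, Ifit1 and Ifit3 stayed at least 2-fold lower in each setting in which they were computed, from -3.13 to -2.66, -2.70 to -1.65 and -2.43 to -1.56. Each has 1 probe, well above background on both arrays. Settings that change the probe or the background filter could thus not move them, and only those that change scaling or background correction bear on them.

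**Figure D5:**
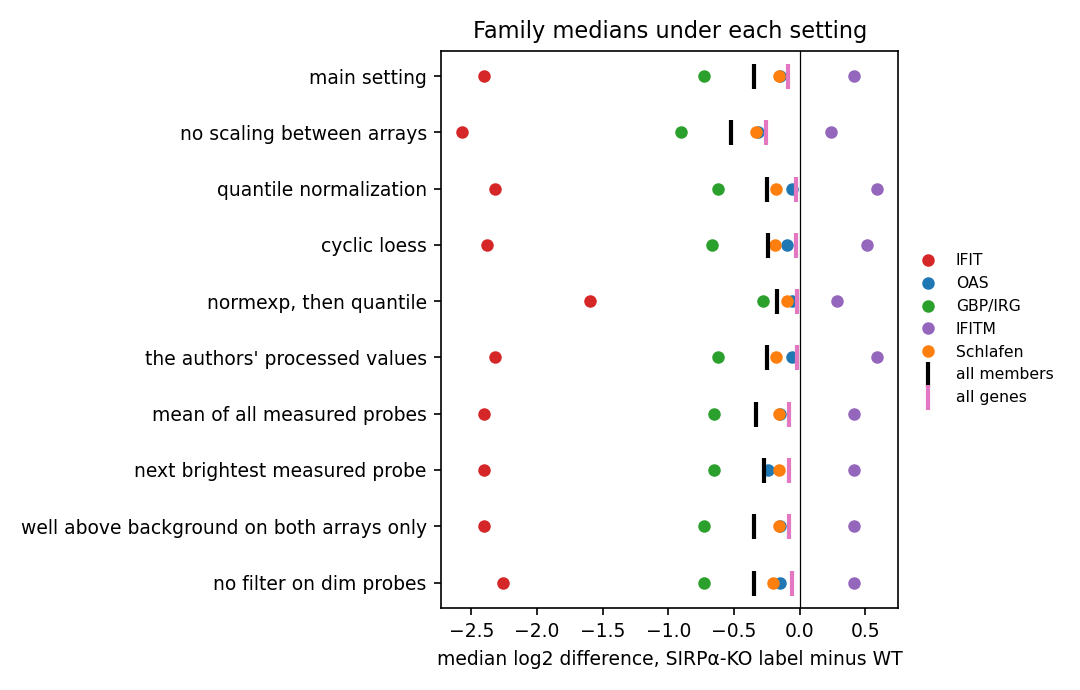
Median log2 difference, SIRPα-KO-labelled array minus WT, on the x axis, of 5 families (points), of all measured members (black bar) and of all genes (pink bar), under the main setting and 9 others on the y axis. The IFIT median stays at or below -1.60, the IFITM median above 0, and the members' median lies left of that of all genes in each. Settings that change the probe could not move the IFIT median, since its members have 1 probe each. The authors' values nearly repeat quantile normalization.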

How the data were processed

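RNA of 2 pools was read on 1-colour arrays. Per the file headers, the authors' scanner tables were made with Agilent Feature Extraction 11.0.1.1 (design 26655, build mm9) and hold spot intensity on a linear scale, background-subtracted and spatially detrended. A deposited table of the authors' log2 values (median 4.56 on each array) served as an alternative. The sources used here do not give its normalization. Its differences nearly matched those after quantile normalization (Ifit1 at -2.45 and Sirpa at 0.75 in both), so it is hardly a separate check.

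Non-uniform spots and population outliers, as flagged by the software (190 and 167 of 43020 non-control spots) were left out, and spots of a probe were averaged as log2 values. Accessions, without versions, were matched to RefSeq (GRCm38.p6, names only); 27206 of 39386 probes matched. A gene took its probe of highest mean signal and was measured if either array had it well above background. A dim side was raised, if lower, to the dimmest probe of its array still well above background (signals of 7.92 and 8.53), giving a lower bound ("at least"), or 0 where this turned the sign. The main design allows no test, so a 2-fold rule was used.

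Alternatives used limma 3.58.1 in R 4.3.3; the rest used Python 3.11.15. The gene step was tested on simulated data. The members and lists were chosen with earlier results of these data known. Every member was to be named, with signals for the 5 families and for members at least 2-fold apart, and of each list of relatives or pathway genes those at least 2-fold apart or else the brightest; further genes are marked as outside that rule or given for close copies. Normexp was run on median spot signals. A gene of the pathway list is not reported here by name.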

Additional observations from a re-analysis of the deposited data

Results flagged for a closer look

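A probe of Gbp6 that the comparison of genes does not use, since a brighter probe represents the gene, carried a signal above the WT level: 40.5 in WT and 152 on the SIRPα-KO-labelled array, a difference of 2.08 ± 0.21. The probe used for Gbp6 differed by -1.65 ± 0.21. Which transcripts each probe reads was not tested, and Gbp10 is a close relative whose transcripts a probe may not separate.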

How the results depend on the processing

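The count of members at least 2-fold lower, 9, is given here with the share of all genes in brackets, 5.52% in the main setting. It was 18 at a 1.5-fold limit (13.5%) and 5 at 3-fold (2.38%), and the fold limits change it by construction. After normexp it was 4 (2.84%). With the next brightest probe it was 5 (4.77%), all of them genes with 1 measured probe, which kept their value. It was 13 without scaling, 8 (all but Parp14) with quantile or cyclic loess normalization and in the authors' values, 6 with the mean of probes, 7 with genes well above background on both arrays, and 10 with no filter. The count of members 2-fold higher, 1, against 3.13% of all genes, fell to 0 unscaled (1.94%), with normexp (1.28%) and at 3-fold (0.663%). It was 2 with the next brightest probe (3.13%) and 3 at 1.5-fold (11.4%). Gbp6 turned to 0.21 with the mean of its probes and to 2.08 at its next probe. After normexp, whose offset of 50 shrinks dim differences by construction, the median was -1.60 for IFIT and -0.28 for GBP and IRG. The median of the members ranged from -0.52 to -0.17. Sirpa differed by 0.75 both in quantile-normalized and in the authors' values. Higher genes made up 36.2% of all genes 2-fold apart, but 20.5% without scaling, 46.9% with quantile normalization, 47.0% in the authors' table. Normexp and the check that all probes of a gene share a side of 0 (8 lower and 1 higher) were added after the data were seen; normexp on mean spot signals was not run. No paired analysis was possible because each genotype has 1 array. Signals near 8, the lowest well above background, leave Rsad2, Irgm1 and Herc6 uncertain in size.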
